A study of Mus musculus with 9 samples.

Results

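Serotonin acts in the cortex through receptors that fall into classes by the signal they set off, and 10 of their genes are described here in mouse medial prefrontal cortex: Htr1a, Htr1b, Htr1f, Htr2a, Htr2c, Htr3a, Htr4, Htr5a, Htr6 and Htr7. They were taken by gene symbol from a table of 35125 rows with a gene identifier, and all 10 were among the 14013 genes kept for testing. The other 4 serotonin receptor genes in the table, Htr1d, Htr2b, Htr3b and Htr5b, were examined beside them. RNA was sequenced in 9 libraries, 3 from control mice without stress, 3 from mice of a chronic unpredictable stress model (CUS), and 3 from a running model. The labels list the running group as exercise, without saying whether these mice were stressed, and the series design speaks of running exercise in mice that went through CUS. The tissue of all 9 libraries is labelled mPFC with the terms 4 week and week 8. They state no strain, sex or age of the mice. Values are FPKM, counts of sequenced fragments scaled to transcript length and library size, which can therefore be set side by side between genes.

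Most serotonin of the cortex is released by axons of the raphe nuclei, so the tissue holds the receptors but few of the cells that make the transmitter. Htr1a, Htr1b, Htr1f and Htr5a encode receptors coupled to inhibitory Gi/o proteins, which lower cyclic AMP and, for Htr1a, open inwardly rectifying potassium channels. Htr2a and Htr2c couple to Gq and phospholipase C and release calcium from internal stores. Htr4, Htr6 and Htr7 couple to Gs and raise cyclic AMP, and Htr3a encodes a subunit of a cation channel. In prefrontal cortex Htr2a is known for its place on pyramidal neurons of layer 5 and as the target of psychedelic drugs, Htr1a as a target of anxiolytics, and Htr3a as a mark of a class of interneurons.

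The upstream sequences of 4 receptor genes are shown. Htr2a had the widest difference between groups, Htr2c the smallest and Htr2a the largest spread within groups, and Htr1a and Htr7 the highest correlation of any pair, though no pair passed adjustment. Each is the 250 bases before the RefSeq transcript start in GRCm38.p6, the assembly behind mm10, written 5′ to 3′ on the strand of the gene. Capitals mark matches on either strand to one of 7 motifs searched.
Htr2a, chr14:74640624-74640873, plus strand: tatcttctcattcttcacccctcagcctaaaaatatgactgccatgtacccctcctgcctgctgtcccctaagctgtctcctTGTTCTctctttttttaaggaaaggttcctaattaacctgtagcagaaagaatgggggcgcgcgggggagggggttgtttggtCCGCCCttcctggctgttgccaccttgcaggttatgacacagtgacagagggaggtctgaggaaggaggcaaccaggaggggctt
Htr2c, chrX:146962263-146962512, plus strand: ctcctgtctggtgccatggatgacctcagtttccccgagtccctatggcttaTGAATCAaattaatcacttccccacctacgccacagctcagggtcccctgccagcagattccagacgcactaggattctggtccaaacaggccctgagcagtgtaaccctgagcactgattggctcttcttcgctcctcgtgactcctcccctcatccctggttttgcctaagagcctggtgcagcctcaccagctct
Htr1a, chr13:105443443-105443692, plus strand: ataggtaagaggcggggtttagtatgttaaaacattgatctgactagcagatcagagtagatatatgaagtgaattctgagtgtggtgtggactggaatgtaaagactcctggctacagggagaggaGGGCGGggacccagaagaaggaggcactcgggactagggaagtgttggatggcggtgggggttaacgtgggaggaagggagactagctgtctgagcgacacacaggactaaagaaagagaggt
Htr7, chr19:36057361-36057610, minus strand: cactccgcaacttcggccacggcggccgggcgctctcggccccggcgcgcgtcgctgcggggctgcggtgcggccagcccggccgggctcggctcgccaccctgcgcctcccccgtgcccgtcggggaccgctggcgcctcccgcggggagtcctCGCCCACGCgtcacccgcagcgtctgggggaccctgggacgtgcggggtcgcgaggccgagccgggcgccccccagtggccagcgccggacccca
The capitals are, in Htr2a, the shorter, single-site form of the glucocorticoid response element (AGAACA, on the opposite strand, from base -168) and an Sp1 box (GGGCGG, on the opposite strand, from base -85). In Htr2c they are an AP-1 site (TGANTCA, its own reverse complement, from -198), in Htr1a an Sp1 box (from -123) and in Htr7 an Egr site (GCGTGGGCG, on the opposite strand, from -95). The matches of each sequence do not overlap one another. Of 32851 windows of the same length in the RefSeq promoter table, 16.1% held AGAACA, 32.7% GGGCGG, 6.75% TGANTCA and 0.536% GCGTGGGCG. The other motifs searched, which none of the 4 windows held, were the cyclic AMP response element TGACGTCA (1.55% of windows), the serum response element (0.0609%) and the TATA box TATAAA (12.4%). The windows differed in base composition, with 52.8% G and C in Htr2a, 55.6% in Htr2c, 50.4% in Htr1a and 82.0% in Htr7, against a median of 52.4% over all windows. Windows were found for 8 of the 10 receptor genes. The Htr7 window, and the last bases of the Htr2c window, lie within the span RefSeq gives the gene, since the start used is not the outermost one. A match says only that these letters are present.

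Over the 9 libraries the receptor with the highest mean was Htr2a at 6.79 ± 2.59 FPKM (SD, n = 9), the 42.0th percentile of the kept genes. It was followed by Htr5a (5.32 ± 0.614), Htr2c (5.16 ± 0.291), Htr3a (4.93 ± 0.779), Htr1a (3.69 ± 0.702), Htr1b (3.34 ± 0.492), Htr6 (2.73 ± 0.190), Htr7 (1.98 ± 0.433), Htr1f (0.772 ± 0.264) and Htr4 (0.621 ± 0.169). The ranges of neighbours in this order overlapped in 8 of 9 steps. The exception was the step from Htr7, whose lowest library had 1.37 FPKM, to Htr1f, whose highest had 1.33. Htr2a exceeded Htr5a in 6 of 9 libraries, and Htr1a exceeded Htr1b in 3 of 9 despite its higher mean. The 10 genes summed to between 31.0 and 41.4 FPKM per library, and all 3 CUS libraries (31.0 to 33.3) lay below all 3 control (34.1 to 36.1) and all 3 running libraries (36.9 to 41.4). Without Htr2a the other 9 genes summed to 27.9 to 29.1 FPKM in controls and 27.5 to 28.1 in CUS, which overlap, and to 29.3 to 29.4 in running.

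The remaining receptor genes were near the bottom of the scale. Htr5b, a Gi/o-coupled relative of Htr5a, passed the filter with 0.39 to 0.93 FPKM. Htr1d had at most 0.23, Htr2b at most 0.18 and Htr3b, the partner subunit of Htr3a, at most 0.05 FPKM. Among genes of serotonin neurons, Tph2, the neuronal enzyme of serotonin synthesis, had at most 0.30 FPKM, and Slc6a4, the serotonin transporter, at most 0.12. Some other genes listed for serotonin synthesis, transport or raphe neurons were higher. Ddc had 1.70 to 3.04 FPKM, Slc18a2 1.14 to 2.22 and Gata2 1.34 to 2.72. Fev, a transcription factor of raphe neurons, was listed at 0 in 7 of 9 libraries. Cortical excitatory markers were abundant, and 6 of them, with Slc17a7 and Camk2a, summed to between 1729 and 1894 FPKM.

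**Figure D1:**
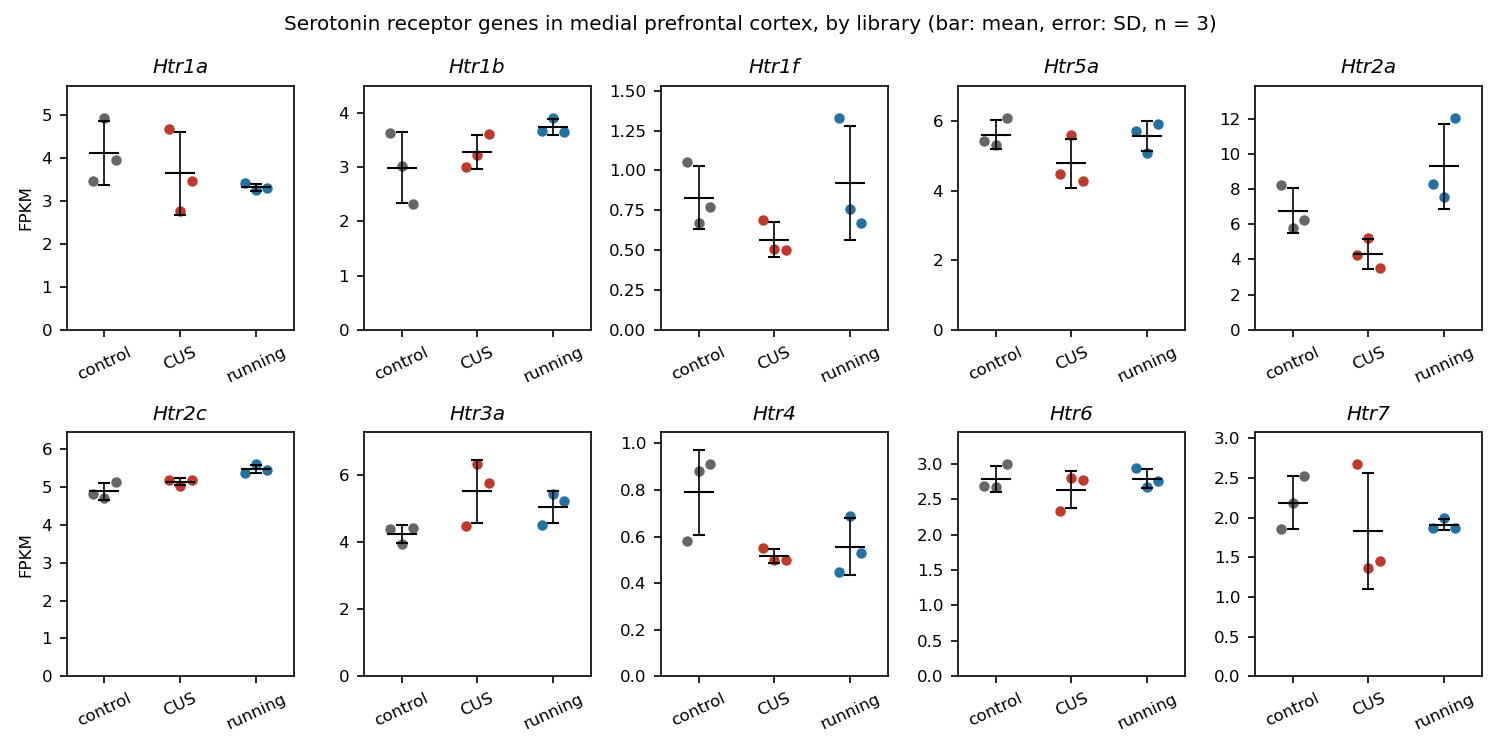
FPKM (vertical axis, from 0) of each of the 10 receptor genes in the control, CUS and running libraries. Points are libraries, horizontal bars are means and error bars are SD (n = 3). The Htr2a points of the running libraries, 7.57 to 12.04, lie above those of the CUS libraries, 3.50 to 5.19.

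Depth and library facts bear on all genes below. The deposited values carry no counts, so depth was read from short genes with 1 annotated transcript. Their low values, multiplied by length in kilobases, were taken in a fixed window of 0.035 to 0.055 and in a window at its double. These held 15 to 36 and 12 to 25 genes per library, with 3 to 8 in the gap between. The median of the first window, the step, was read as 1 fragment and lay between 0.0419 and 0.0468 in the 9 libraries. Depths on that reading were within 0.956 to 1.07 times the median. The fixed windows bound both the doubling and the closeness of these depths, so neither is a test of the reading. On that reading Htr2a rested on about 410 fragments in its lowest library, but Htr1f on about 26 and Htr4 on about 46, so counting error is largest for these low genes. CUS replicate 3 stood apart, with an FPKM sum of 423257 against 370441 to 393663 in the other 8 and a mean correlation across genes of 0.987 with the other libraries against 0.990 to 0.993. Myelin markers were lower in CUS than in controls in 6 of 6 genes, 4 of them at an unadjusted p under 0.05, with sums of 609 to 1139 FPKM in controls, the highest in replicate 3, 459 to 680 in CUS and 537 to 608 in running. Layer 6 markers summed to 33.1 to 38.1, 21.9 to 41.3 and 22.3 to 31.2 FPKM in the same order, inhibitory neuron markers to 668 to 839, 749 to 830 and 644 to 703, claustrum markers to 55.6 to 60.1, 57.7 to 77.0 and 62.4 to 68.3, and septum and thalamus markers to 22.5 to 22.7, 20.4 to 22.3 and 20.6 to 28.9. Sums were 287 to 327, 255 to 315 and 274 to 318 FPKM for astrocytes, 110 to 119, 113 to 134 and 105 to 115 for microglia, and 102 to 116, 88.2 to 104 and 84.3 to 105 for endothelium, with 6 genes each. Raphe markers summed to at most 3.10 FPKM, mostly Gata2. The part of these cell types in the receptor values was not tested. Groups were compared with limma on log2(FPKM + 0.5), in 1 model of all 9 libraries with Benjamini-Hochberg adjustment over 14013 genes, and called means an adjusted p under 0.05. The labels do not tie libraries to single animals, so p-values measure the spread between these libraries. In a tissue extract, fewer cells of a type and less RNA per cell cannot be told apart.

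The question of the CUS comparison is how the stress model differs from unstressed cortex. No receptor gene was called: 0 of 10 passed, against 0.00714% of all genes tested, with limma adjusted p between 0.260 and 0.723. At an unadjusted p under 0.05 there were 3 of 10, Htr2a and Htr4 lower and Htr3a higher, where 14.7% of all genes were past that level. The same 3 genes were the ones without overlap between the groups, where 19.7% of all genes had none (12.1% higher and 7.60% lower). By sign 7 of the 10 were lower in CUS and 3 higher, with a median log2 difference of -0.19 against 0.02 over all genes, where 55.9% were higher. With library quality weights Htr1a and Htr7 were higher in CUS, by 0.04 and 0.09, rather than lower.

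The question of the running comparison, going by the series design, is how exercise changes expression in mice that underwent CUS. Here too 0 of 10 were called, against 0.00714% of all genes, with limma adjusted p between 0.0776 and 0.861. At an unadjusted p under 0.05 there was 1 of 10, Htr2a, against 23.5% of all genes, and Htr2a, Htr1b and Htr2c were higher in running without overlap, against 24.9% of all genes in either direction and 8.99% higher. By sign 8 of the 10 were higher in running (42.2% of all genes), with a median log2 difference of 0.09 against -0.03 over all genes, and Htr1a, one of the other 2, had a difference of 0.0016 after rescaling to TPM. Between running and control 0 of 10 were called (0.0214% of all genes), Htr1b, Htr2a and Htr2c were higher at an unadjusted p under 0.05 (11.6% of all genes in either direction), and 4 of 10 did not overlap (22.4% of all genes). By sign 6 of the 10 were higher in running than in control (43.8% of all genes), with a median of 0.04 against -0.02. A test of any difference among the 3 groups called 0 of 10 receptors, against 0.0214% of all genes, and had an unadjusted p under 0.05 for Htr2a and Htr3a (21.1% of all genes). These 3 comparisons share libraries, the CUS ones entering with opposite signs, and are given side by side for that reason.

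**Figure D2:**
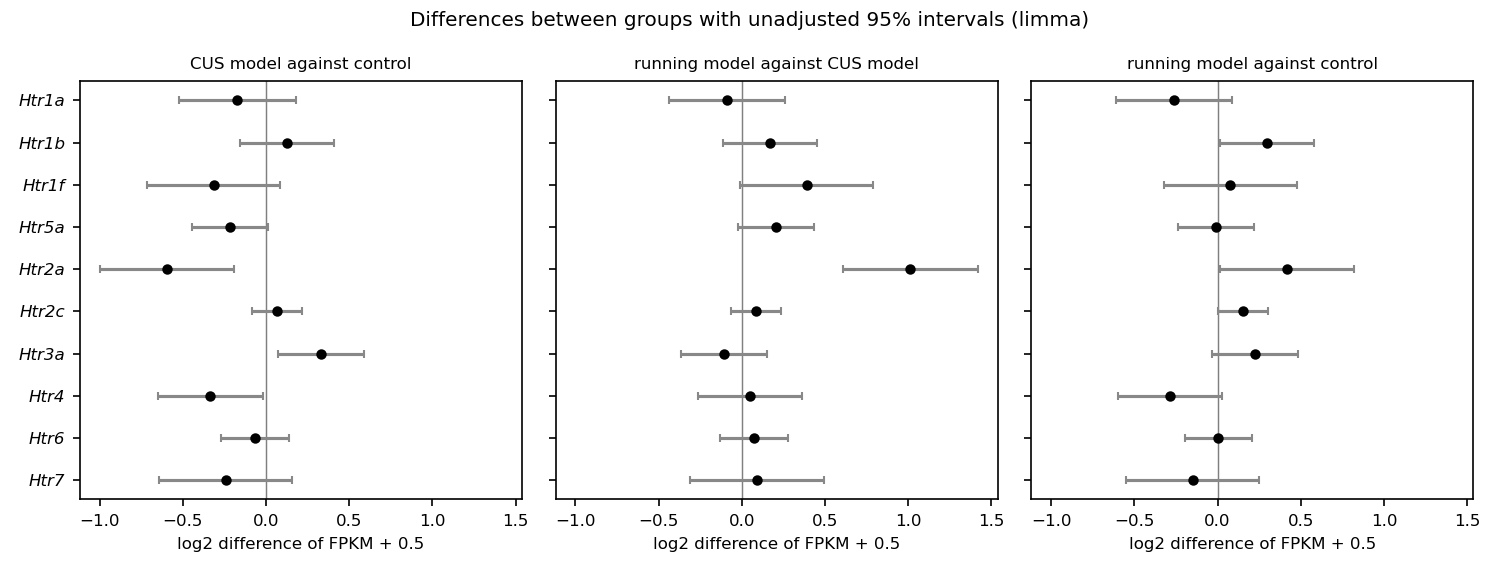
Difference between groups in log2(FPKM + 0.5) on the horizontal axis for each receptor gene, in 3 panels for CUS against control, running against CUS and running against control. Points are limma estimates and bars are 95% intervals that are not adjusted for the number of genes. The point for Htr2a between running and CUS, at 1.01, lies farthest from 0.

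Among the Gq-coupled receptors, Htr2a (chromosome 14, 74640874 to 74706859) had the widest differences of the 10 genes between CUS and the other groups. Its FPKM were 8.22, 5.81 and 6.25 in the controls, 4.24, 5.19 and 3.50 in CUS, and 8.27, 7.57 and 12.04 in running. Every CUS library was below every control and every running library, and the running range overlapped that of the controls. Running averaged 9.29 ± 2.40 FPKM against 4.31 ± 0.847 in CUS (SD, n = 3 each), a ratio of means of 2.16 and a log2 difference of 1.01 (SE 0.183). The gene stood 27th by p of 14013 genes in that comparison and did not pass (limma adjusted p = 0.0776), where 6.62% of all genes had an adjusted p under 0.1. Against the control mean of 6.76 ± 1.28 FPKM, CUS was 0.638 times as high, or -0.59 in log2 (SE 0.183), with a limma adjusted p of 0.260. Running against control gave 0.42 (limma adjusted p = 0.415), and 0.23 without running replicate 3, the library with 12.04 FPKM.

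With each library left out in turn, the Htr2a difference between running and CUS ranged from 0.82 without running replicate 3 to 1.14 without CUS replicate 2. It was called in the fit without CUS replicate 2 (limma adjusted p = 0.0223), which called 1518 of all 14013 genes, and with library quality weights (log2 1.09, limma adjusted p = 0.0117), which called 2178 genes. Without CUS replicate 3, the library that stood apart, it was 0.89 (limma adjusted p = 0.112), and CUS minus control was -0.47. After correction for length and GC content of the transcripts, it was 1.00 (limma adjusted p = 0.0965).

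Since Htr2a is known from layer 5 pyramidal neurons, markers of cortical layers were set beside it. The summed level of 6 layer 5 markers, among them Fezf2, Bcl11b and Etv1, was 91.1 to 94.2 FPKM in controls, 100 to 104 in CUS and 80.4 to 94.8 in running. By sign 5 of the 6 were higher in CUS than in controls, 1 of them at an unadjusted p under 0.05, and Etv1 was lower, by 0.15 in log2 without passing the test. The 6 upper layer markers summed to 218 to 234 FPKM in controls, 191 to 229 in CUS and 210 to 250 in running. By sign 5 of these 6 were lower in CUS than in controls and 1 higher. Of the lower ones 3 did not overlap (7.60% of all genes) and 0 had an unadjusted p under 0.05. In running 5 were higher than in CUS and 1 lower, with 2 of the higher at an unadjusted p under 0.05 (7.74% of all genes). The 6 excitatory markers summed to 1764 to 1829, 1729 to 1799 and 1812 to 1894 FPKM in the same order of groups. The part of layer 5, upper layer and other excitatory neurons in the Htr2a values was not tested.

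Htr2c (chromosome X, 146962464 to 147197277), the other Gq-coupled receptor, whose transcript is edited by adenosine deaminases and which also marks choroid plexus, behaved in the opposite way in its spread. Its values were 4.80, 4.70 and 5.13 FPKM in controls, 5.18, 5.02 and 5.18 in CUS, and 5.37, 5.59 and 5.45 in running. The running libraries lay above all others, and control and CUS overlapped. Running against control gave a ratio of means of 1.12 and 0.15 in log2 (SE 0.0671, limma adjusted p = 0.421), and running against CUS 0.09 (limma adjusted p = 0.465). Control replicate 3 stood apart in choroid plexus markers, with a sum over 12 genes of 219 FPKM, mostly Ttr, against 8.13 to 42.6 in the other 8 libraries. Its Htr2c value of 5.13 was the highest of the controls and the only one of them to reach the CUS range. CUS replicate 1, with a choroid plexus sum of 10.5 FPKM, had an Htr2c value of 5.18. The part of choroid plexus in the Htr2c values was not tested.

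The within-group SD of log2 values was 0.0403 for Htr2c, above only 0.985% of the 1726 genes within 1.3 times its mean. It was 0.283 for Htr2a, above 97.1% of 1920 such genes. Htr1a (0.234) and Htr7 (0.266) stood above 89.5% and 86.2% of genes of their level, and Htr6 (0.0918) above 17.4%. These ranks describe the 9 libraries and carry no test.

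**Figure D3:**
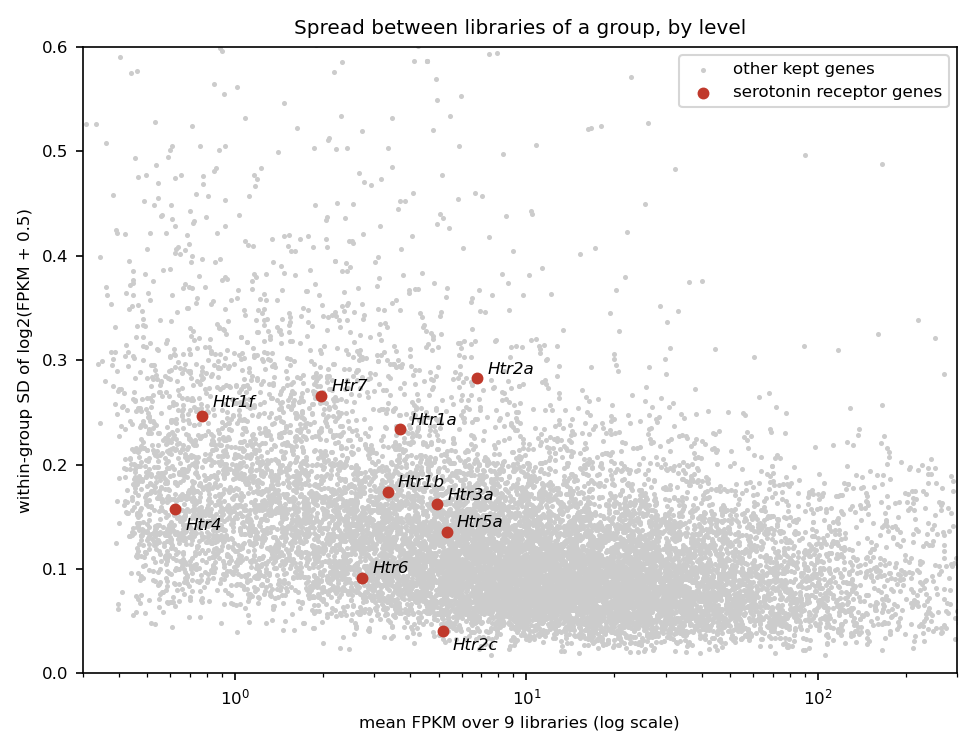
Within-group SD of log2(FPKM + 0.5) against mean FPKM over 9 libraries (log axis) for the kept genes, in grey, and the 10 receptor genes, in red. Of 14013 genes, 239 lie outside the axes. Htr2a, at 0.283, is near the top of genes of its level, and Htr2c, at 0.0403, near the bottom.

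Among the Gi/o-coupled receptors, Htr1a (chromosome 13, 105443693 to 105448133) had 3.46, 4.93 and 3.96 FPKM in controls, 4.67, 2.77 and 3.47 in CUS, and 3.41, 3.25 and 3.30 in running. The running values lay close together and below all controls, while the CUS values spanned nearly the whole range. The log2 difference was -0.26 between running and control (95% interval -0.61 to 0.09, limma adjusted p = 0.557) and -0.17 between CUS and control (-0.52 to 0.18). Without control replicate 2 these were -0.14 and -0.05. CUS minus control was -0.28 without control replicate 1, -0.35 without CUS replicate 1 and -0.015 without CUS replicate 2. Htr1b (chromosome 9, 81628291 to 81633832), which sits on axon terminals and limits transmitter release, had 3.63, 3.02 and 2.33 FPKM in controls, 3.00, 3.22 and 3.61 in CUS, and 3.67, 3.91 and 3.65 in running. The running libraries were above all others, narrowly so at 3.65 against 3.63 in control replicate 1 and 3.61 in CUS replicate 3. Its log2 difference was 0.30 between running and control (SE 0.127, limma adjusted p = 0.408), 0.15 without control replicate 3, and 0.17 between running and CUS (limma adjusted p = 0.440).

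Htr5a (chromosome 5, 27841716 to 27855086), the second most abundant of the 10, had 5.42, 5.31 and 6.09 FPKM in controls, 4.49, 5.59 and 4.27 in CUS, and 5.72, 5.09 and 5.90 in running. CUS replicates 1 and 3 were below all other libraries and CUS replicate 2 was not. The log2 difference between CUS and control was -0.21 (95% interval -0.44 to 0.01, limma adjusted p = 0.354), and that between running and CUS 0.21 (-0.02 to 0.43, limma adjusted p = 0.254). The latter was 0.31 without CUS replicate 2 and 0.14 without CUS replicate 3. Htr1f (chromosome 16, 64924729 to 65105784), a target of migraine drugs, had 1.05, 0.67 and 0.77 FPKM in controls, 0.69, 0.51 and 0.50 in CUS, and 1.33, 0.76 and 0.67 in running. The groups overlapped in all 3 comparisons. The log2 difference between running and CUS was 0.39 (SE 0.181, limma adjusted p = 0.222), and 0.19 without running replicate 1.

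The channel subunit Htr3a (chromosome 9, 48899213 to 48911152) had 4.39, 3.93 and 4.41 FPKM in controls, 4.47, 6.31 and 5.75 in CUS, and 4.50, 5.42 and 5.21 in running. The CUS and the running libraries all lay above the controls, narrowly so for CUS replicate 1 and running replicate 1. CUS averaged 5.51 ± 0.943 FPKM against 4.24 ± 0.272, which is 0.33 higher on the log2 scale (SE 0.117, limma adjusted p = 0.281), and 0.17 higher with library quality weights. The difference between running and control was 0.22 (limma adjusted p = 0.493). Of 10 markers of the interneuron class that expresses Htr3a, among them Vip, Reln and Adarb2, 5 were higher and 5 lower in CUS than in controls, and their sum was 870 to 930 FPKM in controls, 868 to 1228 in CUS and 857 to 995 in running. The sum was mostly Cck, at 91.1% to 93.1% of it, and the other 9 markers summed to 65.7 to 74.0 FPKM in controls, 64.2 to 86.5 in CUS and 70.2 to 80.8 in running. The part of these interneurons in the Htr3a values was not tested. Ric3, a chaperone of the channel, averaged 16.2 FPKM.

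Among the Gs-coupled receptors, no difference passed the test. Htr4 (chromosome 18, 62323546 to 62503027) had 0.58, 0.88 and 0.91 FPKM in controls, 0.55, 0.50 and 0.50 in CUS, and 0.45, 0.69 and 0.53 in running. The CUS libraries lay below the controls, narrowly so at 0.55 against 0.58, and running overlapped both. CUS minus control was -0.33 in log2 (SE 0.142, limma adjusted p = 0.322), and -0.51 with a pseudocount of 0.1, since the added 0.5 is close to the values themselves. Htr4 is abundant in striatum, and 8 of 11 kept striatal markers were lower in CUS than in controls, where 55.9% of all genes were higher. The sum over 12 genes was 156.16 to 178.66 FPKM in controls, 141.11 to 156.35 in CUS and 154.49 to 163.63 in running, with overlapping ranges. The part of striatal neurons in the Htr4 values was not tested.

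Htr7 (chromosome 19, 35958415 to 36058133) had 1.86, 2.18 and 2.52 FPKM in controls, 2.67, 1.37 and 1.45 in CUS, and 1.87, 1.99 and 1.87 in running. CUS held both its highest and its lowest library, and no comparison separated the groups. Htr6 (chromosome 4, 139059706 to 139075570) had 2.68, 2.67 and 2.99 FPKM in controls, 2.33, 2.80 and 2.77 in CUS, and 2.94, 2.67 and 2.76 in running. Its log2 differences were between -0.07 and 0.07, with 95% intervals inside -0.27 to 0.28.

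The balance of the inhibitory Htr1a and the excitatory Htr2a was taken as the log2 ratio of their FPKM, which does not depend on how a library is scaled. It was -1.25, -0.24 and -0.66 in controls, 0.14, -0.91 and -0.01 in CUS, and -1.28, -1.22 and -1.87 in running. All 3 running libraries were below all 3 CUS libraries, and CUS overlapped the controls. Running averaged -1.46 ± 0.358 and CUS -0.26 ± 0.565 (SD, n = 3 each), a difference of -1.20 (exact permutation test, two-sided, p = 0.1, the smallest that 3 against 3 libraries can give). The difference was 0.45 between CUS and control (exact permutation p = 0.4) and -0.74 between running and control (exact permutation p = 0.2). With 1 library left out, the difference between CUS and control ranged from 0.19 without control replicate 1 to 0.78 without CUS replicate 2. It was 0.69 without control replicate 2 and 0.26 without CUS replicate 1. Running minus control was -0.50 without control replicate 2. Most of the difference between running and CUS lay in Htr2a, since Htr1a differed by -0.09 between these groups.

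The receptor genes were also compared with one another over the 9 libraries. Of 45 pairs, 4 had an exact permutation p under 0.05 for Pearson's r and 0 after Benjamini-Hochberg adjustment, and for Spearman's rho 1 and 0. Htr1a and Htr7 had r = 0.77 (exact permutation p = 0.0161, adjusted p = 0.265) and rho = 0.63 (exact permutation p = 0.0773, adjusted p = 0.401), and r was 0.76 without the 2 libraries farthest from the median of Htr1a and 0.78 after removal of group means. Htr1a and Htr3a had r = -0.80 (exact permutation p = 0.00856, adjusted p = 0.265) and rho = -0.73 (exact permutation p = 0.0311, adjusted p = 0.401), with -0.76 without the 2 farthest libraries and -0.87 within groups. Htr3a and Htr7 had r = -0.76, which fell to -0.36 without CUS replicates 2 and 3, and Htr5a and Htr2a had 0.74, which was 0.21 without CUS replicates 1 and 3. After removal of group means, r was -0.73 for Htr3a and Htr7 and 0.59 for Htr5a and Htr2a.

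**Figure D4:**
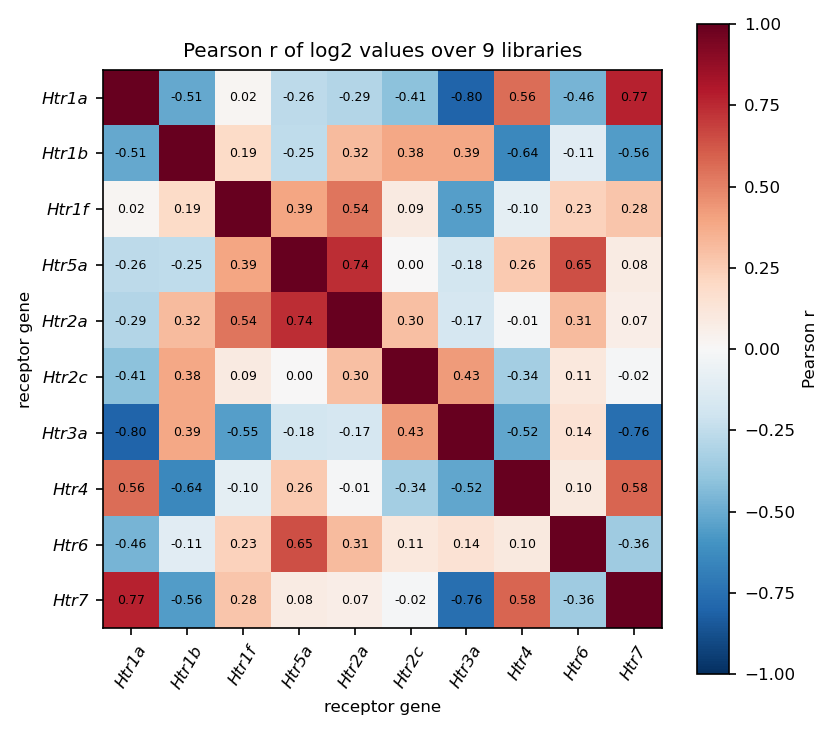
Pearson r of log2(FPKM + 0.5) over 9 libraries for each pair of the 10 receptor genes, from -1 in blue to 1 in red. The highest r, 0.77, is that of Htr1a and Htr7, and the lowest, -0.80, that of Htr1a and Htr3a.

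For each receptor the kept genes with the most similar profile over the 9 libraries were listed, among 12739 genes with a mean of at least 1 FPKM. For Htr2a these were Syna (r = 0.97), Kcnh1, a voltage-gated potassium channel (0.97), and Epha4, an ephrin receptor (0.97), and 62 genes had an r of at least 0.9. For the other receptors between 0 and 13 genes reached that level. The closest gene was Arpin for Htr1a (r = 0.97), Zbtb46 for Htr1b (0.93), Krtcap3 for Htr1f (0.91), Zfp267 for Htr5a (0.92), Zfp189 for Htr2c (0.96), Ccnjl for Htr3a (0.98), Sardh for Htr4 (0.96), Fgf5 for Htr6 (0.88) and Lss, an enzyme of sterol synthesis, for Htr7 (0.94). With 9 libraries and this many genes, high values of r arise readily, and the list is a description.

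Beyond the receptors, 64 genes of the serotonin pathway were examined by role, and 57 were kept. None was called by limma in any comparison. At an unadjusted p under 0.05, 4 were higher and 4 lower in CUS than in controls, 9 higher and 6 lower in running than in CUS, and 4 higher and 0 lower in running than in controls. The background shares over all genes were 8.90% higher and 5.79% lower, 7.74% higher and 15.7% lower, and 5.15% higher and 6.47% lower.

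Effectors carry the signal on from the receptors and their G proteins. Of 16 effector genes, 13 were lower in CUS than in controls, 3 of them at an unadjusted p under 0.05. In running 12 were higher than in CUS, 6 of them at that level. Over all genes 55.9% were higher in CUS than in controls, and 42.2% higher in running than in CUS. The signs were not counted again without CUS replicate 3, the library that stood apart. That library was the lowest of all libraries in Adcy1, Adcy3, Adcy6, Adcy8, Adcy9, Plcb3, Plcb4, Itpr1, Kcnj3, Kcnj6 and Kcnj9. It was not the lowest in Adcy2, Adcy5, Plcb1, Prkaca and Prkacb. In Adcy1 it had 47.54 FPKM against 72.70 and 72.10 in the other CUS libraries. In Adcy6 it had 7.01 against 9.17 and 10.54, with 9.10 to 9.44 in controls, so the sign counts rest in part on this library. Plcb1, the phospholipase C that Gq activates, had 31.97, 31.20 and 29.01 FPKM in controls, 26.49, 25.50 and 25.87 in CUS, and 32.99, 28.38 and 33.25 in running. Its log2 difference was -0.24 between CUS and control (SE 0.0698, limma adjusted p = 0.260) and 0.27 between running and CUS (limma adjusted p = 0.0861). As with Htr2a, the CUS libraries were below all others.

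Plcb3, another phospholipase C beta, had 3.87, 3.82 and 3.93 FPKM in controls, 3.74, 3.99 and 2.82 in CUS, and 3.66, 4.24 and 3.90 in running, so that its groups overlapped. Plcb4, a further one, had 14.10, 13.45 and 12.35 FPKM in controls against 11.51, 11.50 and 11.04 in CUS, a log2 difference of -0.22 (limma adjusted p = 0.260). Itpr1, the calcium release channel of internal stores, had 72.16, 70.90 and 64.02 FPKM in controls, 62.82, 62.96 and 48.82 in CUS, and 73.03, 74.49 and 80.12 in running. Its log2 difference was -0.25 between CUS and control (limma adjusted p = 0.295), -0.13 without CUS replicate 3 and -0.15 with the length and GC trend removed. Between running and CUS it was 0.39 (limma adjusted p = 0.0832), and 0.25 with that trend removed. The Gq proteins did not share this order: Gna11 was higher in CUS by 0.13 on the log2 scale (limma adjusted p = 0.295), which was 0.06 after rescaling to TPM and 0.07 with quantile normalization, and Gnaq lay between 39.57 and 44.69 FPKM in all libraries.

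**Figure D5:**
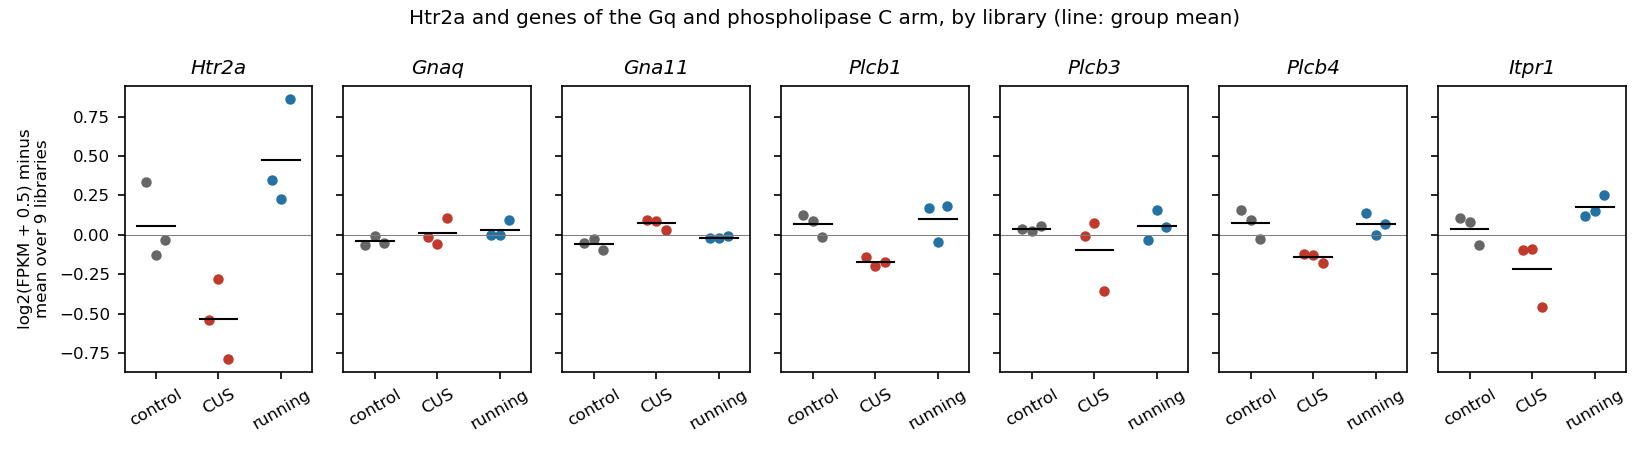
Htr2a and the 6 listed genes of the Gq and phospholipase C arm, as log2(FPKM + 0.5) minus the gene's mean over 9 libraries (vertical axis, shared). Points are libraries and lines are group means. The CUS points of Htr2a, Plcb1, Plcb4 and Itpr1 lie below those of the controls and those of Gna11 above, while Plcb3 and Gnaq overlap.

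On the inhibitory side, Kcnj6, a subunit of the potassium channels that Htr1a opens, had 12.93, 11.33 and 10.38 FPKM in controls, 9.28, 11.88 and 8.81 in CUS, and 14.08, 14.07 and 14.71 in running. The running libraries were above all others, exceeding CUS by 0.51 in log2 (SE 0.109, limma adjusted p = 0.0776) and controls by 0.30 (limma adjusted p = 0.326). The other listed subunits of these channels, Kcnj3 and Kcnj9, were more abundant, with means of 35.6 and 42.8 FPKM against 11.9 for Kcnj6. Their differences between running and CUS were -0.004 and 0.10 (limma adjusted p = 0.978 and 0.469), with overlapping groups. Adcy9, an adenylyl cyclase, was higher in running by 0.31 than in CUS (limma adjusted p = 0.0858) and by 0.20 than in controls. Of the other listed cyclases, Adcy1 was higher in running than in CUS by 0.36 without overlap (limma adjusted p = 0.150). Adcy2, Adcy3 and Adcy6 were higher by 0.11, 0.07 and 0.12, and Adcy5 and Adcy8 lower by 0.05 each, all with overlapping groups. Among G proteins, Gnal, a stimulatory subunit, was higher in running than in CUS by 0.21 (limma adjusted p = 0.0924), and by 0.14 with the length and GC trend removed. Gnas, the common stimulatory subunit, was lower by 0.20 and Gnai2 by 0.14, but these differences were 0.01 and 0.04 lower after quantile normalization. Gnai3 was higher in running than in controls by 0.24.

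Of the 15 genes of serotonin synthesis, transport and breakdown, 11 were kept. Slc29a4, a low-affinity monoamine transporter, had 3.48, 2.67 and 3.30 FPKM in controls, 3.58, 4.92 and 4.32 in CUS, and 3.78, 4.75 and 4.50 in running. The CUS and the running libraries all lay above the controls, by 0.38 on the log2 scale in CUS (SE 0.128, limma adjusted p = 0.267) and by 0.41 in running (limma adjusted p = 0.275). Aldh2, which oxidises the aldehyde left by monoamine oxidase, was lower in CUS by 0.21 (limma adjusted p = 0.260). Maoa lay between 9.73 and 11.3 FPKM and Maob between 12.6 and 18.2. Pts, an enzyme of the cofactor of serotonin synthesis, was lower in running than in CUS by 0.26, and by 0.12 without CUS replicate 3.

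Among 20 regulators and binding partners, Rgs19 was higher in CUS than in controls by 0.31 (SE 0.0745, limma adjusted p = 0.246) and Rgs14 by 0.20. Both limit signalling by G proteins. Between running and CUS, Adarb1, which edits the Htr2c transcript, was higher by 0.27 and S100a10, an adaptor of Htr1b and Htr4, lower by 0.38 (limma adjusted p = 0.117 and 0.141). Without CUS replicate 3 these were 0.15 higher and 0.18 lower, and with the length and GC trend removed 0.15 higher and 0.13 lower. Rgs19 and Rgs2 were lower in running than in CUS by 0.19 and 0.18, and by 0.03 and 0.10 with that trend removed. Without CUS replicate 3 the same 2 differences were 0.12 and 0.09, also lower. In running against control 0 of the 20 had an unadjusted p under 0.05, and the most abundant, Dlg4 and Rgs4, had log2 differences of -0.02 and 0.01. Htr5b, the kept receptor outside the 10, had differences between 0.02 and 0.18.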

How the data were processed

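Polyadenylated RNA of mouse medial prefrontal cortex was sequenced in 9 libraries, 3 per group. The authors deposited FPKM values with 2 decimals. Per the submitters' processing notes, Bowtie2 2.2.5, RSEM 1.2.12, DESeq2 1.4.5 and mm10 were used; which step each served is not stated there. The protocol names no step that keeps strand. Of the rows, 30264 without a gene identifier of NCBI were at 0 throughout.

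A gene was kept at 0.5 FPKM or more in 3 or more libraries. Groups were compared on log2(FPKM + 0.5) by limma 3.58.1 under R 4.3.3 (variance trend with intensity, 6 residual degrees of freedom). The fit was also run on values simulated from its own means and variances, which cannot show how well it suits these libraries. Replicates are numbered in order of listing and pair nothing. Changes are on the log2(FPKM + 0.5) scale, which understates those of low genes. The read depth was estimated from the smallest steps of the values, inside a fixed window, with transcript lengths of GENCODE M21. For this 150 bases were taken off each length, and the estimate gives no counts to test. Coordinates and upstream sequences are from RefSeq, GRCm38.p6.

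Members and lists were chosen with earlier results of these data known. All 10 receptors are reported. Pathway genes were named at an unadjusted p under 0.05, at most 4 per role and comparison, and otherwise the 2 most abundant of a role; others are named as background levels. Cck, Etv1, Ddc, Slc18a2, Plcb3, Prkaca, Prkacb, Kcnj3, Kcnj9 and every listed Adcy gene except Adcy9 were named after their values were seen. Marker lists of raphe, claustrum, septum and thalamus, layer 6, inhibitory neurons, astrocytes, myelin, microglia and endothelium were also summed. Alternatives were other pseudocounts, filters, scalings, weights, variance models and leaving out each library. Removal of a length and GC trend, for 98.6% of kept genes, was chosen after seeing the data.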

Additional observations from a re-analysis of the deposited data

How the results depend on the processing

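No paired analysis was possible because the replicate numbers follow the order of listing and tie no library of one group to one of another. Of 294 receptor values under 10 other settings, 285 kept direction and side of the threshold, as did 256 of 270 with a library left out. With library quality weights, 1 receptor, Htr2a, was called between running and CUS and 1, also Htr2a, for any difference among the 3 groups. With each library left out in turn, between 0 and 1 receptors were called between running and CUS, the 1 being Htr2a without CUS replicate 2, and 0 in the other comparisons. With at least 1 FPKM required, Htr1f, Htr4 and Htr5b had no value.

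Signs of log2 differences reversed as follows, and the cause was not tested. Most were near 0, but Htr7 (-0.24 between CUS and control, 0.09 between running and CUS) and Htr1a (-0.17 between CUS and control) moved further. After rescaling to TPM, Htr1a was 0.0016 between running and CUS, Htr5a 0.025 and Dlg4 0.012 between running and control, and Htr5b -0.012 between CUS and control. With quantile normalization Htr5a was 0.0053 and Dlg4 0.027 between running and control. With library quality weights, in which CUS replicate 3 counted 0.244 and CUS replicate 1 2.61, Htr1a was 0.038, Htr7 0.090 and Htr5b -0.13 between CUS and control, Htr3a 0.056 and Htr7 -0.23 between running and CUS, and Htr5a 0.028 between running and control. With the length and GC trend removed, Htr5b was -0.014 between CUS and control. With each library left out in turn, the differences between CUS and control ranged from -0.017 to 0.26 for Htr1b, -0.11 to 0.0036 for Htr6 and -0.098 to 0.21 for Htr5b. Those between running and CUS ranged from -0.25 to 0.084 for Htr1a, -0.045 to 0.34 for Htr7, -0.039 to 0.12 for Htr4 and -0.0069 to 0.27 for Htr5b. Those between running and control ranged from -0.12 to 0.20 for Htr1f, -0.048 to 0.049 for Htr5a, -0.028 to 0.050 for Htr6, -0.069 to 0.022 for Dlg4 and -0.098 to 0.15 for Rgs4. Low depth limits Htr1f and Htr4 most.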
